A study of Homo sapiens with 2 samples.

Results

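HLA class I genes and interferon-induced genes were examined in MiaPaCa cells, an established human pancreatic cancer line, with and without silencing of the transcription factor MYB. The genes were chosen by name from the deposited table, and with their direction in these libraries already known: HLA-B, HLA-F and HLA-G for class I, and IFIT1, IFIT3, OASL and OAS2 for the interferon-induced genes. These 7 genes of 831 gene names occupied 10 records of 836, 6 for the HLA genes and 4 for the interferon-induced genes. Because the difference between the libraries chose the members, all their values below are a description and no test was run on them.

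The Scr control library came from cells with a plasmid encoding a scrambled hairpin, and the MYB-silenced library from cells with a plasmid encoding a short hairpin RNA against MYB. Both were stable pools kept in puromycin, not single clones, and the vector (pGFP-V-RS) was common to both. The labels give the control the genotype MYB-overexpression, although only the hairpin and scrambled plasmids are described. There was 1 library per group, so no spread between replicates exists. Values are FPKM, fragments scaled to transcript length and library size. MYB itself stood at 981 FPKM in the control against 0.554 FPKM in the MYB-silenced library. Sequencing depth is unknown. The table lists only records with a deposited p-value up to 0.04995, of which 61.7% were lower and 38.3% higher after silencing, so a gene without a record may have been unchanged, weakly expressed or untested. None of 25 marker genes of lymphoid, myeloid, stromal or ductal epithelial cells had a record, so the labelled cell type could not be checked against its epithelial markers here.

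HLA class I heavy chains pair with beta-2-microglobulin, are loaded with peptides in the endoplasmic reticulum and present them at the cell surface. HLA-B is a classical, highly polymorphic chain recognised by cytotoxic T cells, while HLA-F and HLA-G are less polymorphic chains bound by receptors of natural killer and other immune cells. Interferons act through JAK kinases and STAT factors on promoters that hold an interferon-stimulated response element (ISRE). IFIT1 and IFIT3, which bind each other and act against viral RNA that lacks host cap modifications, OAS2, which makes 2′-5′ oligoadenylates on sensing double-stranded RNA, and OASL, a relative without that activity that acts in RNA sensing, are genes of this response. Classical class I genes are also inducible by interferon, through NF-kB, ISRE and SXY elements described in their promoters, and HLA-G is known as an exception to this control.

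Promoter stretches are shown because HLA-B and the interferon-induced genes are described as inducible by interferon while their records differed in direction. HLA-F and HLA-G, whose records were lower like those of the interferon-induced genes, are shown beside them. Each stretch runs from 180 to 41 bases before the RefSeq start site on GRCh38.p14, a different build from the hg19 table. Capitals mark the ISRE core (GAAA and GAAA, separated by any 2 bases) and the CCAAT box letters ATTGG, each on either strand. HLA-B lies on the minus strand at chr6:31357220-31357359, HLA-F on the plus strand at chr6:29723254-29723393 and HLA-G on the plus strand at chr6:29827645-29827784. IFIT1 is on the plus strand at chr10:89392443-89392582 and IFIT3 on the plus strand at chr10:89332349-89332488.
HLA-B: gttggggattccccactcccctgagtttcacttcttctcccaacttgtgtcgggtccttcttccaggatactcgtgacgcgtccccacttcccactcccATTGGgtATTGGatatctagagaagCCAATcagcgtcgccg
HLA-F: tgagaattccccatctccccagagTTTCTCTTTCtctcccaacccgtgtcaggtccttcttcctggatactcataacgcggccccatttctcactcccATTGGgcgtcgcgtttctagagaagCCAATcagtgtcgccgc
HLA-G: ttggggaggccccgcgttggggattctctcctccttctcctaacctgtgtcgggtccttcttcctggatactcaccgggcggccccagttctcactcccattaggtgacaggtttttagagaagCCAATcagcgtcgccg
IFIT1: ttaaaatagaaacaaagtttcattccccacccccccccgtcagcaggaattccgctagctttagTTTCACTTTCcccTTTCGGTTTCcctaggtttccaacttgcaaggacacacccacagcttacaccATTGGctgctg
IFIT3: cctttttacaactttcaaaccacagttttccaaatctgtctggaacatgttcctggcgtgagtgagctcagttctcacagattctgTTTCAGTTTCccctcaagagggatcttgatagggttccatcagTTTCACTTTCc

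HLA-B was higher in the MYB-silenced library at each of its 4 records, the direction of 38.3% of all records. At its main locus (XLOC_020698, chr6:31321649-31324989, hg19) it measured 8.68 FPKM in the Scr control against 43.8 FPKM in the MYB-silenced library, a 5.04-fold difference. On the cox haplotype contig (XLOC_021417) it was at 28.2 and 75.2 FPKM, 2.67-fold. On the qbl contig (XLOC_022102) it was at 4.15 and 10.5 FPKM, 2.54-fold. The weakest record, on the mcf contig (XLOC_021919), was at 0.458 and 1.57 FPKM, 3.42-fold. Haplotype contigs are alternate assemblies of the MHC region, so a fragment from one HLA-B transcript may align to several of them, and the 4 records are not independent measurements.

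The cox contig, not the main chromosome, held the largest part of the HLA-B signal. Of the sum over the 4 records, it took 68.0% in the Scr control library and 57.4% in the MYB-silenced library. The main locus took 20.9% and 33.4%, the qbl contig 10.0% and 8.05%, and the mcf contig 1.10% and 1.19%. The main locus thus gained share and the cox and qbl contigs lost share. The summed FPKM was 41.5 in the control and 131.1 in the silenced library, a 3.16-fold difference, smaller than the 5.04-fold difference of the main locus alone. The assignment of fragments that align to several contigs was not given in the sources used here, and the sum covers listed records only. HLA-B on contigs without a record was not analysed here. In the GENCODE annotation 8 other genes overlap an extended HLA-B gene. Among them are HLA-C over 2640 bases and LINC02571 over 7735 bases, both on the same strand. The deposited main-locus record spans only 3341 bases, and on the mcf contig the HLA-B and HLA-C records do not overlap. Reads from shared stretches cannot be assigned to 1 gene from these values, and their part in the HLA-B values was not tested.

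**Figure D1:**
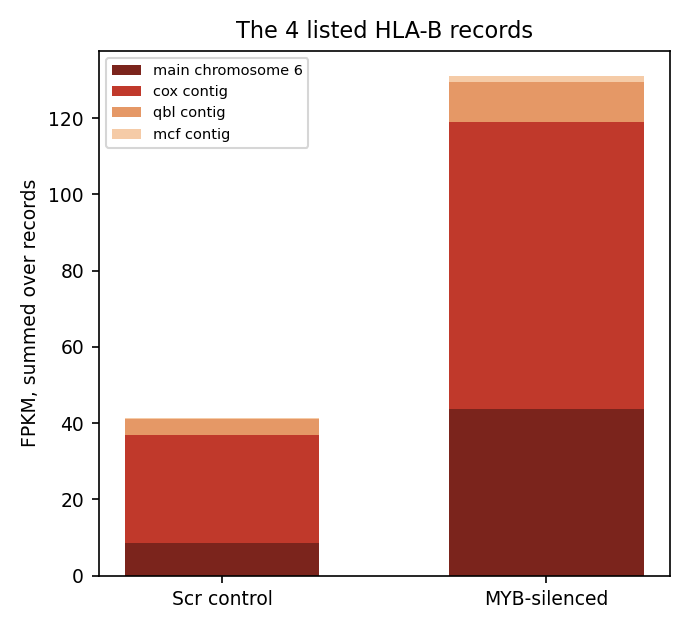
Stacked bars give the FPKM of the 4 listed HLA-B records in the Scr control and the MYB-silenced library, 1 library each, coloured by main chromosome or haplotype contig. The total is 41.5 FPKM in the control and 131.1 FPKM in the silenced library, and the cox contig is the largest block in both.

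HLA-F and HLA-G had the opposite direction. HLA-F on the mann contig (XLOC_021663) measured 2.67 FPKM in the Scr control and was listed at 0 in the MYB-silenced library. HLA-G on the same contig (XLOC_021665) was at 0.534 FPKM and listed at 0. Both records carry one and the same span of 198508 bases, whereas the HLA-B records span 3341 to 3420 bases. The main loci of both genes on chromosome 6 had no record. A listed 0 can be a failed estimate, so no plain fold is given, and these values do not show that the genes were silent. The log2 ratios given below for both records depend on the added pseudocount. Without strand information, reads of HLA-F cannot be told apart from those of HLA-F-AS1, an antisense gene that overlaps it in the GENCODE annotation.

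Listed zeros of this kind were not limited to HLA genes. Of 836 records, 20 (2.39%) were at 0 in the MYB-silenced library and 15 in the Scr control. All 15 of the control were small nucleolar RNA genes. Leaving out those genes, which removes every zero of the control, 10 records were at 0, and all 10 were at 0 in the silenced library. Besides HLA-F and HLA-G they included GH1, the growth hormone gene, at both of its records, and 3 heart and striated muscle genes, TNNT2, MYL3 and HSPB7. Of a list of 26 striated muscle genes drawn up after the values were seen, 11 had a record and all 11 were lower after silencing, the direction of 61.7% of all records, with a summed 42.3 FPKM in the control and 14.4 FPKM in the silenced library. TRIM55 alone was at 21.8 and 10.8 FPKM, and without it the other 10 summed to 20.5 and 3.55 FPKM, 5.77-fold lower rather than 2.94-fold. Its defining contractile genes TNNT2 and MYL3 were at 1.80 and 1.05 FPKM in the control and at 0 in the silenced library. The part of such RNA in the HLA-F and HLA-G values was not tested. In bulk RNA, fewer cells of a type and less RNA per cell cannot be told apart.

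HLA-C, another classical class I heavy chain, went the way of HLA-B. On the mcf contig it was at 1.79 FPKM in the Scr control and 4.19 FPKM in the MYB-silenced library. On the log2(FPKM + 0.5) scale 4 of the 6 member HLA records were at least 2-fold higher, beside 20.0% of all records, and 2 at least 2-fold lower, beside 25.0%. The records share sequence and contigs, and members were chosen on this difference, so these counts are not evidence of their own. HLA-B was the only record in the 29 to 34 Mb interval of the main chromosome 6, which holds the MHC.

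The 4 interferon-induced genes were each lower after silencing, the direction of 61.7% of all records, and all lie on main chromosomes. IFIT1 (XLOC_002856, chr10:91152303-91166244, hg19) measured 10.9 FPKM in the Scr control against 5.04 FPKM in the MYB-silenced library, 46.1% of control. IFIT3 (XLOC_002854, chr10:91087602-91100725) was at 10.7 and 4.66 FPKM, 43.4% of control. The 2 genes, whose proteins act in one complex, thus had nearly the same level in the control and nearly the same remaining share. They lie 51.6 kb apart in the IFIT cluster. Of the other 3 genes of the IFIT list, IFIT1B, IFIT2 and IFIT5, none had a record.

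OASL (XLOC_006269, chr12:121458095-121477045) measured 4.09 FPKM in the Scr control against 1.52 FPKM in the MYB-silenced library, 37.2% of control. OAS2 (XLOC_005589, chr12:113416274-113449528), the oligoadenylate synthetase proper of the pair, was at 0.486 and 0.0630 FPKM, 13.0% of control. Both OAS2 values are under 1 FPKM, so its larger ratio is the less certain one. OASL stood 8.40-fold above OAS2 in the control in FPKM, a level scaled to transcript length. OAS1 and OAS3, the other synthetase genes of the family, had no record. Without strand information, OAS2 reads cannot be told apart from those of the antisense gene AC004551.1, which overlaps it in GENCODE.

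**Figure D2:**
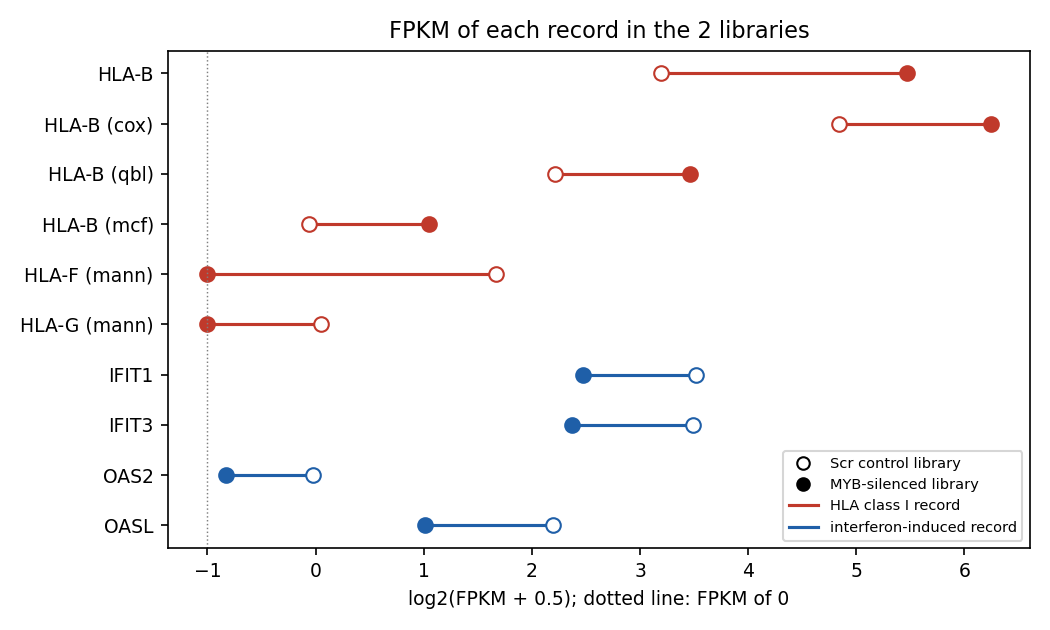
Each line joins the Scr control value (open circle) and the MYB-silenced value (filled circle) of 1 record on the log2(FPKM + 0.5) scale, with HLA class I records in red and interferon-induced records in blue, and the contig in brackets. The 4 HLA-B records are higher after silencing, HLA-F and HLA-G end at the dotted line of 0 FPKM, and the 4 interferon-induced records are lower.

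On a common scale, log2(MYB-silenced FPKM + 0.5) minus log2(Scr FPKM + 0.5), the HLA records ran from -2.67 for HLA-F to 2.27 for HLA-B at the main locus, with a median of 1.18. The other HLA-B records were at 1.40 (cox), 1.25 (qbl) and 1.11 (mcf), and HLA-G was at -1.05. Because 4 of the 6 HLA records are HLA-B, this median mainly reflects that gene, while HLA-F and HLA-G were lower. On this scale the interferon-induced genes were at -1.18 for OASL, -1.12 for IFIT3, -1.04 for IFIT1 and -0.81 for OAS2, with a median of -1.08. The pseudocount of 0.5 FPKM shrinks the ratio of OAS2 from the -2.95 in the authors' deposited table. There OASL was at -1.43, IFIT3 at -1.21 and IFIT1 at -1.12, so OAS2 was the lowest of the group rather than the nearest to no change. The median over all 836 records was -0.80. Centring on it put OAS2 at -0.01, IFIT1 at -0.25, IFIT3 at -0.33 and OASL at -0.38, while HLA-B at the main locus went to 3.07. Listed records are selected for change, so their median is not the level of unchanged genes. The centred values therefore do not show that the interferon-induced genes were unchanged.

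Among the 801 records above 0 in both libraries, HLA-B at the main locus had the 4th highest log2 ratio on this scale and the cox record the 35th highest. From the lowest, OASL was 103rd, IFIT3 128th, IFIT1 163rd and OAS2 383rd. These ranks depend on the pseudocount, most of all for OAS2. Without one, an alternative chosen after seeing the data, OAS2 was 8th from the lowest, OASL 85th, IFIT3 132nd and IFIT1 167th, and HLA-B was 13th from the highest at the main locus and 66th at the cox record. The authors' deposited table gives unadjusted p-values of 0.0043, 0.0064, 0.00855 and 0.0475 for HLA-B at the main, cox, qbl and mcf records. It gives 5e-05 for HLA-F and 0.00065 for HLA-G. For IFIT1 the deposited p-value is 0.00625, for IFIT3 0.00715, for OASL 0.0127 and for OAS2 0.02795. These compare 2 libraries, not 2 conditions.

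The records closest in level in both libraries were sought by distance in log2(FPKM + 0.5) over the 2 libraries, among single-gene records on main chromosomes. The 3 closest to HLA-B were SNCG (10.6 and 30.8 FPKM, distance 0.57), GATSL3 (8.35 and 28.9 FPKM, 0.59) and TMEM59L (12.4 and 34.01 FPKM, 0.61). The 3 closest to IFIT1 were DNA2 (10.8 and 5.18 FPKM, distance 0.042), FIGNL1 (11.2 and 5.23 FPKM, 0.062) and PMEPA1 (10.6 and 4.70 FPKM, 0.10). IFIT3 came 5th, at a distance of 0.10. IFIT1 therefore had close neighbours in level and ratio, while no record in this search lay as close to HLA-B. HLA-B at the main locus had the 4th highest log2 ratio of 801 records, so few records could lie near it.

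The rest of both pathways left almost no record. None of 10 genes of the class I light chain and peptide loading (among them B2M, TAP1, TAP2 and TAPBP), of 5 genes of the immunoproteasome and its activator, of 5 regulators such as NLRC5 and CIITA, or of 10 class II genes was listed. None of 31 other interferon-stimulated genes (ISG15, MX1, IFI6 and RSAD2 among them), of 16 interferon ligand and receptor genes, of 16 JAK, STAT, IRF and feedback genes, or of 17 nucleic acid sensor genes was listed either. That is 0 of 110 genes over 8 lists. Records existed for only 831 gene names in all, and the share of all annotated genes with a record was not computed. The count is therefore not a result about these pathways. The exception among upstream factors was RELA, the p65 subunit of NF-kB, at 23.8 FPKM in the control against 5.14 FPKM after silencing, the 1 listed of 5 NF-kB subunits. It was lower while HLA-B was higher. An absent record is no measurement, so the level of these genes in either library was not analysed here.

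Motif letters in the promoters overlapped only in part between the 2 groups. RefSeq windows from 250 bases before to 50 bases after the start were found for 5 of the 7 genes, 1 for HLA-B, HLA-F and IFIT1, 2 for IFIT3 and 3 for HLA-G, and none was used for OASL and OAS2. The ISRE core, searched on both strands, was in 3.57% of 35116 such windows, and at 2 or more positions in 0.259%. The IFIT1 window and both IFIT3 windows held it at 2 positions each. In IFIT1 the 2 cores began 116 and 103 bases before the start, as printed above, and in the downstream IFIT3 window 94 and 51 bases before it. HLA-F held 1 core, 156 bases before its start. HLA-B held none, but at nearly the same place, 155 bases before the start, its letters differed from the core at 2 positions. None of the 3 HLA-G windows held it, and HLA-G is shown above by the window that resembles the other class I promoters.

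The letters ATTGG, an inverted CCAAT box that in this orientation is part of the SXY module of class I promoters, were searched on both strands. They were in 34.6% of all windows. In HLA-B they began 81 and 74 bases before the start on the same strand and 56 bases before it on the opposite strand. In HLA-F they began 82 bases before the start on the same strand and 57 on the opposite strand. The only match in that HLA-G window, 56 bases before the start, was on the opposite strand. The letters were not particular to class I: in IFIT1 they began 237 and 51 bases before the start on the same strand. Neither IFIT3 window held them. The cyclic AMP response letters TGACG (24.6% of windows), a part of the same module, were in HLA-B 106 bases before the start and in IFIT1 143 bases before it, on the opposite strand, and not in the HLA-F, HLA-G or IFIT3 windows. The relaxed NF-kB letters, GGG and CC separated by any 5 bases (58.7% of windows), were in HLA-B, in that HLA-G window and in IFIT1, and not in HLA-F or IFIT3. In HLA-B they were GGGGATTCCC, beginning 177 bases before the start. The MYB core AACNG was in 77.2% of all windows, at 2 or more positions in 47.3%, and in the full window behind every printed stretch. Those windows held it at 2 positions in HLA-B, 1 each in HLA-F and HLA-G, 5 in IFIT1 and 6 in IFIT3. Of these, 1 of 5 in IFIT1 and 3 of 6 in IFIT3 shared bases with an ISRE core. Counts differed between windows of one gene. The other IFIT3 window held 4, of which 0 shared bases with an ISRE core. Another HLA-G window held 3, and the remaining one held none. In global alignments, the printed class I stretches were 81.7% identical between HLA-B and HLA-F and 76.6% between HLA-B and HLA-G, and the 2 IFIT stretches 52.4%, near the 47.9% of HLA-B and IFIT1. A match of letters is no evidence of binding, and binding was not measured.

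**Figure D3:**
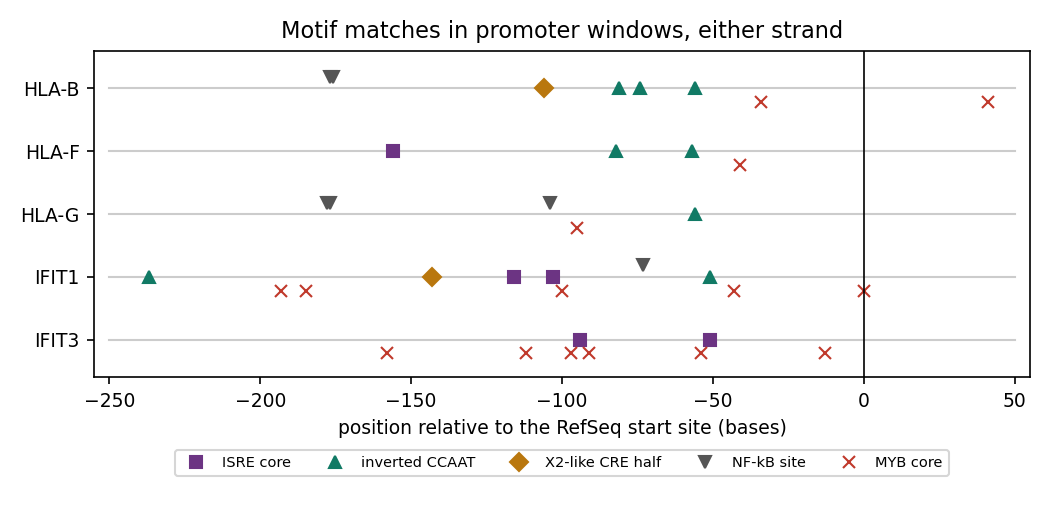
Symbols give the start of each motif match on either strand along the RefSeq promoter window, from 250 bases before to 50 bases after the start site (vertical line), for HLA-B, HLA-F, HLA-G, IFIT1 and the downstream window of IFIT3. ISRE cores appear at 2 positions in IFIT1 and in IFIT3, at 1 in HLA-F and at none in HLA-B and HLA-G, and CCAAT letters appear in the 3 HLA windows and IFIT1.

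Sequence shared with other genes was larger for the HLA genes than for the OAS genes at short word lengths. Of all distinct 30-base words in the GENCODE release 29 transcripts of HLA-B, 13.3% also occurred in transcripts of another gene, most often HLA-C (9.60%). For HLA-G the share was 12.1% and for HLA-F 3.96%. It was 6.45% for IFIT3, 3.45% for IFIT1, 0.700% for OASL and 0.315% for OAS2. With words of 50 bases the shares were 2.72% for HLA-B, 3.43% for HLA-G, 0.977% for HLA-F, 2.48% for IFIT3, 1.02% for IFIT1 and 0 for OASL and OAS2. With words of 100 bases the share was 0.707% for HLA-G and 0 for HLA-B and each of the other genes. The annotation holds no haplotype contigs, so the sharing between the 4 HLA-B copies comes on top of these figures, and the read length was not given in the sources used here.

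Direction in the whole table moved with the GC content of transcripts. IFIT1, IFIT3 and OAS2 sat lower on that axis than the HLA genes, while OASL lay near them. In 5 bins of equal size the share of lower records went from 92.4% in the lowest GC bin to 11.5% in the highest. HLA-B (59.5% GC), HLA-G (57.3%), HLA-F (56.9%) and OASL (55.1%) lay in the 4th bin, where 78 of 156 records were lower. OAS2 (47.4%) lay in the 3rd bin with 69.4% lower, IFIT3 (44.2%) in the 2nd with 87.2% lower and IFIT1 (41.6%) in the lowest. Within the 4th bin, which was evenly split in direction, OASL, HLA-F and HLA-G were lower and HLA-B was higher. The part of GC content in these ratios was not tested.

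**Figure D4:**
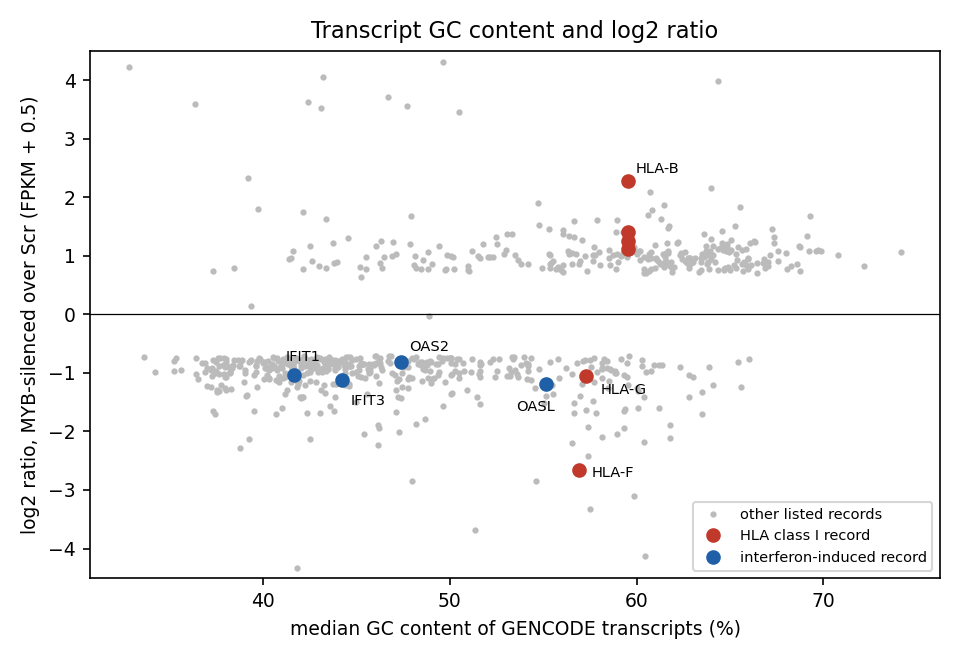
Each point is 1 listed record, with the median GC content of its GENCODE transcripts in percent on the x axis and the log2 ratio of MYB-silenced over Scr control FPKM (pseudocount 0.5) on the y axis, for 783 of 836 records, 10 of which lie beyond the plotted 4.5. Higher records gather at high GC content and lower records at low GC content. HLA-B, HLA-F, HLA-G and OASL lie between 55.1% and 59.5% GC, and IFIT1 and IFIT3 lie at lower GC content.

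The position of the IFIT genes adds 1 neighbour. LIPA, which encodes lysosomal acid lipase, is the only other record within 200 kb of a member on a main chromosome, 75941 bases from IFIT3. Its level was 239 FPKM in the control against 140 FPKM after silencing, and its log2 ratio -0.77, against -1.12 for IFIT3 and -1.04 for IFIT1. In the GENCODE annotation an extended LIPA gene overlaps both IFIT genes on the opposite strand, while the deposited LIPA record does not reach them. Without strand information, reads of such an extended transcript cannot be told apart from IFIT reads, and their part in the IFIT values was not tested.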

How the data were processed

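RNA of 1 Scr control and 1 MYB-silenced MiaPaCa library was sequenced. Per the submitters' processing notes, CASAVA 1.8.2, TopHat, Bowtie, Cufflinks and hg19 were used, without roles or parameters. The authors deposited FPKM values, a signed fold score, a log2 fold change without pseudocount and an unadjusted p-value. Counts, library totals and strand settings were not given in the sources used here. No counting interval was computed. Ratios are log2(FPKM + 0.5) differences over all 836 records, with no level filter, and a record past 2-fold counts as different. Record starts were raised by 1. The members, gene lists, motifs and rules for named genes (members, listed genes of the lists, records in the MHC or within 200 kb, and the 3 nearest in level) were chosen with earlier results of these data known. Some listed genes are not reported here. The muscle list was made after seeing the values. The word length of 30 was also set then, in place of a shorter one with higher shares in the same order of genes. GC content (median over GENCODE release 29 transcripts, 783 of 836 records), shared words and promoter letters (RefSeq, GRCh38.p14) were computed with Python 3.11.15, pandas 2.3.3 and numpy 2.4.6. The ratio, the counts and the word shares were tested on simulated data. Alternatives were other pseudocounts, level filters, folds, centring, and leaving out contigs or zeros.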

Additional observations from a re-analysis of the deposited data

How the results depend on the processing

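No library could be left out with 1 per group, and no paired analysis was possible because each group has 1 library. A pseudocount cannot change the direction of a record, so pseudocounts of 0.1 and 1 bear only on size. No member changed direction under centring, though OAS2 came to -0.01. Centring on the median of listed records, which are selected for change, moved the HLA median from 1.18 to 1.98 and the interferon-induced median from -1.08 to -0.29. It turned the 209 records at least 2-fold lower and 167 higher into 35 and 319. On main chromosomes only, the HLA median was 2.27, from HLA-B alone. The HLA median over all member records mainly reflects the HLA-B records. It stayed within 1.5 times of its value with a mean of at least 1 or 5 FPKM and with either pseudocount. The same held, in an alternative chosen after seeing the data, without the zeros (1.32). The counts were 515 and 319 at 1.5-fold, 53 and 35 at 3-fold, and 137 and 106 with a mean of at least 5 FPKM. By over 1.5 times, a pseudocount of 0.1 moved HLA-F (-4.79), HLA-G (-2.66) and OAS2 (-1.85), and a pseudocount of 1 moved HLA-G (-0.62) and OAS2 (-0.48). With depth unknown, values under 1 FPKM deserve the most caution.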

Other observations

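A few related genes outside the fixed lists that had records are named here. They were picked by hand after their values were seen, and other related genes with records are not named. FCGRT, the class I-like chain of the neonatal Fc receptor that also pairs with beta-2-microglobulin, measured 8.27 FPKM in the Scr control against 16.8 FPKM in the MYB-silenced library. ULBP2, a class I-like ligand of the natural killer receptor NKG2D, was at 3.77 and 8.05 FPKM. Both were higher after silencing. NMI, an interferon-inducible protein that binds STAT factors, was lower (15.9 and 8.35 FPKM, log2 ratio -0.89), and IFI27L2, a relative of the interferon-induced gene IFI27, was higher (32.3 and 72.3 FPKM, log2 ratio 1.15).

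Among the striated muscle genes with records, the cardiac myosin heavy chain MYH7 was at 1.84 and 0.118 FPKM, the troponin TNNC1 at 2.09 and 0.304 FPKM, the titin cap TCAP at 1.92 and 0.246 FPKM, and myoglobin MB at 3.05 and 0.736 FPKM. The median log2 ratio of the 11 records was -1.63.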
